A study of Mus musculus with 35 samples.

Results

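The chemokine, interleukin and colony-stimulating factor genes and the genes of their receptors were taken from the RNA-seq table of mouse hematopoietic stem and progenitor cells (HSPCs) by gene name alone. Every name that begins with Ccl, Cxcl, Ccr, Cxcr, Cx3c, Ccrl, Il or Csf followed by a number was kept, and Csf1r, the receptor of CSF-1, was left out by the rule. The rule used no measured value. It gave 69 genes of the 11982 gene names in the table, namely 11 chemokines, 13 chemokine receptors, 9 interleukins and colony-stimulating factors (CSFs), 35 cytokine receptor chains and 1 binding protein, Il18bp. The table lists genes that reach 1 RPKM (a read count scaled by transcript length and by library depth) in at least 1 library, so ligands and receptors below that level were not analysed here.

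Polyadenylated RNA was sequenced from bone marrow HSPCs of WT mice and of JMJD1B-/- mice, with 2 libraries per genotype. JMJD1B, the product of Kdm3b, is a histone demethylase, and the JMJD1B-/- mice were made by a gene trap in it, with no promoter or Cre named that would limit the loss to blood cells. All libraries are labelled with the 129P2xC57BL/6J strain, no other treatment is named, and the study as a whole used adult mice of both sexes with WT littermates. The labels give no age, sex or sort for single libraries, and they do not say whether a library is 1 mouse or a pool. The p-values therefore measure the spread between these libraries.

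Chemokines are small secreted proteins that steer cells through receptors coupled to G proteins, and in bone marrow they hold progenitors in place, release mature cells and slow or start the cycling of progenitors. Many interleukins and CSFs bind receptors built from a ligand-specific chain and a chain shared between several ligands, and most of these receptors signal through JAK kinases and STAT factors. The family of IL-1, IL-18 and IL-33 receptors signals through MyD88 and IRAK kinases instead. Progenitors carry many of these receptors, and maturing myeloid cells and basophils are also rich sources of the ligands.

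In WT HSPCs Kdm3b itself had 31 and 24.3 RPKM, and in JMJD1B-/- HSPCs it had 4 and 4.63 RPKM, here and below in the order of the replicate numbers. The depth, estimated from values that are whole multiples of 1 read, was 17500000 and 24600000 reads for WT and 6100000 and 21000000 reads for JMJD1B-/-. A transcript of 1 kb with 3 reads then has 0.122 to 0.171 RPKM, except in JMJD1B-/- replicate 1, where it has 0.491 RPKM. Intervals and floors of this kind cover counting error only. WT replicate 2 differed from the other libraries in sex-chromosome genes, with Xist at 332 RPKM against at most 0.051 RPKM in the others, and with Ddx3y at 0.411 RPKM against at least 25.5 RPKM. The part of this difference in the results was not tested. In bulk RNA, fewer cells of a type and less RNA per cell cannot be told apart.

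Of the 69 genes, 66 had a mean of at least 0.5 RPKM and were tested on log2(RPKM + 0.1) with limma among all 11863 genes that passed this filter. Ccr4, Il22 and Csf2 did not pass. With an unadjusted p under 0.05 as the call, 21 of the 66 (31.8%) were lower, against 6.33% of all genes tested, and 4 (6.06%) were higher, against 3.81% of all genes tested. Among the called genes, Ccr6 and Il23r, with WT means of 0.183 and 0.464 RPKM, passed the filter through their JMJD1B-/- levels alone and Ccr9 through its WT level alone, so their differences follow in part from the filter. Counted in either direction, 25 were called (37.9%), against 10.1% of all genes. None of the 66 had an adjusted p under 0.05 over all genes tested, a level that 0.0421% of all genes reached, and the lowest adjusted p among them was 0.0768, for Ccl3 and Il6. The adjusted p of the 25 called genes lay between 0.0768 and 0.477. The median log2 fold change of the 66 was −0.66, beside −0.02 over all genes tested. It was −0.38 with quantile normalization, −0.37 without JMJD1B-/- replicate 2 and −1.17 without JMJD1B-/- replicate 1, beside 0.02, −0.10 and 0.09 over all genes. The log2 fold change was negative in 47 of the 66, beside 53% of all genes. Over all genes, 62.4% of the called genes were lower (751 against 452), and 51.6% with quantile normalization (714 against 671), under which 19 members were lower and 6 higher. In 31 genes the JMJD1B-/- libraries were both under the lower WT library (47%, against 22.7% of all genes) and in 8 both were over the higher one (12.1%, against 20.1%), and the genotypes overlapped in 27. With a gene-by-gene test of equal variances, 9 of the 66 had an unadjusted p under 0.05 (7.25% of all genes), and none had an adjusted p under 0.05.

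**Figure D1:**
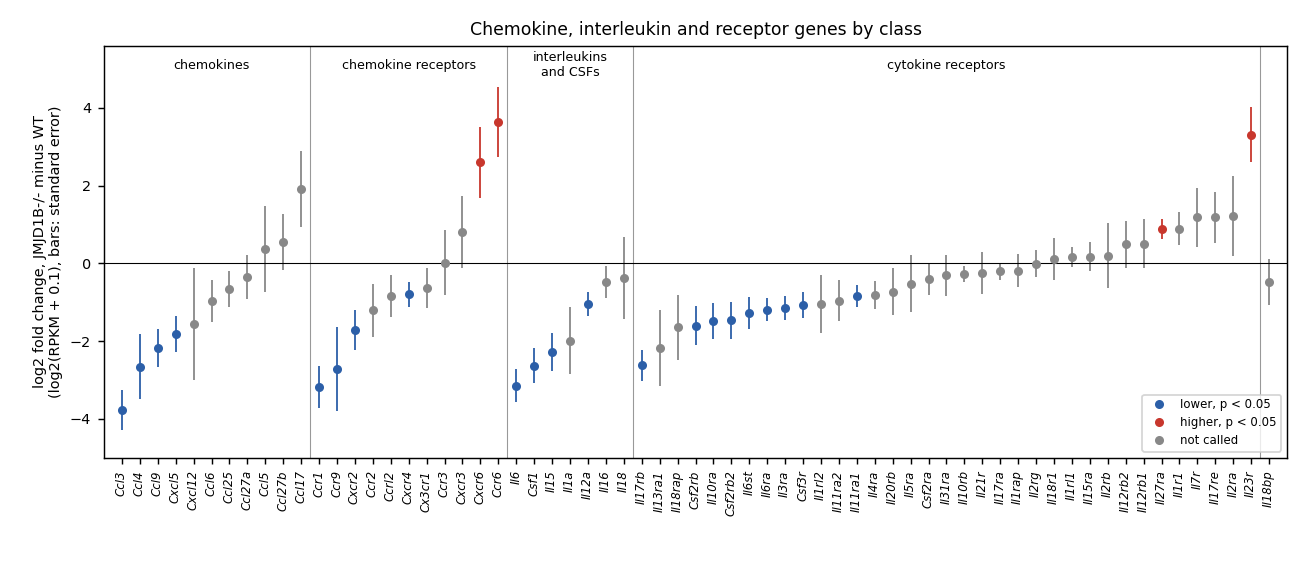
Log2 fold change of the tested genes (JMJD1B-/- minus WT on log2(RPKM + 0.1), 2 libraries per genotype), grouped by class and ordered within each class, with bars for the standard error. Blue and red points are the 21 lower and 4 higher genes at an unadjusted p under 0.05 in limma, and the negative values reach −3.77 for Ccl3 while the positive values reach 3.64 for Ccr6.

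Among the chemokines, 4 of 11 were lower (36.4%) at an unadjusted p under 0.05 and none was higher. Over all genes tested these shares were 6.33% and 3.81%, and the median log2 fold change of the chemokines was −0.97. The lower ones were the CC chemokines Ccl3, Ccl4 and Ccl9 and the CXC chemokine Cxcl5. Ccl3, known as MIP-1 alpha, binds Ccr1 and is known for holding back the cycling of primitive progenitors. It was the most abundant chemokine in the WT libraries, with 41.3 and 47.6 RPKM, against 5.99 and 1.64 RPKM in JMJD1B-/- HSPCs. Both JMJD1B-/- libraries were far below both WT libraries, and replicate 2 was the lower one. The mean went from 44.4 ± 4.5 to 3.81 ± 3.08 RPKM (SD, n = 2 each), which is 8.58% of the WT level, with a log2 fold change of −3.77 (standard error, SE, 0.52; limma, adjusted p = 0.0768). The log2 fold change of Ccl3 was −4.68 without JMJD1B-/- replicate 1 and −2.87 without replicate 2.

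Ccl4, known as MIP-1 beta, is encoded beside Ccl3 and draws T cells and monocytes. It had 3.32 and 11.8 RPKM in WT and 2.05 and 0.371 RPKM in JMJD1B-/- HSPCs, with a log2 fold change of −2.66 (SE 0.83, adjusted p = 0.389). The genotypes did not overlap, but WT replicate 1 was closer to JMJD1B-/- replicate 1 than to WT replicate 2. Ccl9, a rodent ligand of Ccr1 made by myeloid cells, had 17.4 and 14.1 RPKM in WT and 6.09 and 1.85 RPKM in JMJD1B-/- HSPCs, with a log2 fold change of −2.18 (SE 0.50, adjusted p = 0.254). The WT libraries were close to each other, and both JMJD1B-/- libraries were below them. Cxcl5, a ligand of Cxcr2 that draws neutrophils, had 3.14 and 3.7 RPKM in WT and 0.889 and 0.918 RPKM in JMJD1B-/- HSPCs. Its replicates agreed within each genotype, and the log2 fold change was −1.81 (SE 0.46, adjusted p = 0.278).

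The other 7 chemokines were not called. Ccl6, another rodent ligand of Ccr1, was the third most abundant chemokine and had 18.8 and 11.7 RPKM in WT and 14 and 4.06 RPKM in JMJD1B-/- HSPCs. Only JMJD1B-/- replicate 2 was below both WT libraries. Cxcl12, the stromal chemokine that retains progenitors in the marrow through Cxcr4, had 0.293 and 5.92 RPKM in WT and 1.26 and 0.0996 RPKM in JMJD1B-/- HSPCs. Its value rested on WT replicate 2, the library in which the stromal collagen gene Col1a1 also stood out, at 15.7 RPKM against at most 2.13 RPKM in the others. The part of stromal RNA in the Cxcl12 value was not tested. Ccl5, a ligand of Ccr1 and Ccr3 that is abundant in T and NK cells, had 0.963 and 3.99 RPKM in WT and 8.9 and 0.713 RPKM in JMJD1B-/- HSPCs, so that one JMJD1B-/- library was above and the other below WT. Ccl17, a ligand of Ccr4, had 0.113 and 0.315 RPKM in WT and 1.39 and 0.736 RPKM in JMJD1B-/- HSPCs. Both JMJD1B-/- libraries were above both WT libraries, with a log2 fold change of 1.91 (SE 0.97, adjusted p = 0.564). With a WT mean of 0.214 RPKM, Ccl17 passed the filter through its JMJD1B-/- level alone, so this difference follows in part from the filter. Ccl25, the ligand of Ccr9, and the skin chemokine pair Ccl27a and Ccl27b, which are near-identical copies whose reads could be shared, had means of 0.618 to 2.76 RPKM in WT and log2 fold changes between −0.67 and 0.54.

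Among the 12 tested chemokine receptors, 4 were lower (33.3%) and 2 were higher (16.7%) at an unadjusted p under 0.05. Over all genes tested these shares were 6.33% and 3.81%, and the median log2 fold change of the receptors was −0.72. The lower ones were Ccr1, Ccr9, Cxcr2 and Cxcr4, and the higher ones were Ccr6 and Cxcr6. Ccr1, the receptor that Ccl3, Ccl5, Ccl6 and Ccl9 share, had 8.59 and 11 RPKM in WT and 1.81 and 0.519 RPKM in JMJD1B-/- HSPCs. The JMJD1B-/- libraries were both well below the WT libraries, at 11.8% of the WT mean, with a log2 fold change of −3.18 (SE 0.55, adjusted p = 0.156). Cxcr2, the neutrophil receptor that binds Cxcl5, had 3.79 and 2.65 RPKM in WT and 1.13 and 0.703 RPKM in JMJD1B-/- HSPCs, with a log2 fold change of −1.72 (SE 0.51, adjusted p = 0.35). The genotypes did not overlap in Cxcr2. Ccr9, the receptor of Ccl25 on lymphoid precursors and plasmacytoid dendritic cells, had 1.44 and 0.889 RPKM in WT and 0.186 and 0.0216 RPKM in JMJD1B-/- HSPCs. These JMJD1B-/- values are under the 3-read floor of a 1 kb transcript, and the log2 fold change of −2.73 depended on the pseudocount, with −0.96 at 1 and −3.86 at 0.01, where the unadjusted p was above 0.05.

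Cxcr4, the receptor of Cxcl12, was the most abundant of all 69 genes in WT HSPCs, where 94.4% of the listed genes had a lower mean. It had 56.1 and 74.9 RPKM in WT and 52.1 and 26.4 RPKM in JMJD1B-/- HSPCs. JMJD1B-/- replicate 1 was just below WT replicate 1, and the distance rested on JMJD1B-/- replicate 2. The log2 fold change of −0.80 (SE 0.32, adjusted p = 0.477) became −0.31 without JMJD1B-/- replicate 2 and −1.29 without JMJD1B-/- replicate 1, and its unadjusted p was above 0.05 under 7 of the 14 alternatives, among them both other scalings.

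Ccr6, the receptor of CCL20 on IL-17 producing T cells and B cells, and Cxcr6, the receptor of CXCL16 on T cells, NK T cells and innate lymphoid cells, were higher. Ccr6 had 0.0548 and 0.312 RPKM in WT and 5.69 and 1.62 RPKM in JMJD1B-/- HSPCs, with a log2 fold change of 3.64 (SE 0.91, adjusted p = 0.27). WT replicate 1 was under its 3-read floor for a 1 kb transcript, and the log2 fold change of Ccr6 was 1.83 with a pseudocount of 1 and 4.4 with 0.01. Cxcr6 had 1.18 and 1.37 RPKM in WT and 25.6 and 2.59 RPKM in JMJD1B-/- HSPCs, with a log2 fold change of 2.60 (SE 0.91, adjusted p = 0.426). Both genes were above WT in both JMJD1B-/- libraries and much higher in replicate 1, and without that library the log2 fold change of Cxcr6 was 0.97 and no longer had an unadjusted p under 0.05. A list of 8 genes of gamma-delta and IL-17 producing T cells holds neither Ccr6 nor Cxcr6, but it holds the member Il23r. It was chosen with earlier results of these data known, so it is no independent support. Of its 7 listed genes, 7 were higher at an unadjusted p under 0.05, beside 3.81% of all genes tested. Their summed level was 5.55 and 6.56 RPKM in WT and 136 and 25.5 RPKM in JMJD1B-/- HSPCs. The defining gene of the list, Il17a, is not in the table. The part of such cells in the Ccr6 and Cxcr6 values was not tested.

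The remaining receptors were not called, and in all of them JMJD1B-/- replicate 1 was above replicate 2. Ccr2, the receptor that brings monocytes out of the marrow, was the second most abundant receptor and had 36.5 and 57 RPKM in WT and 46.7 and 8.2 RPKM in JMJD1B-/- HSPCs. Replicate 1 lay between the WT libraries and replicate 2 far below them. Cx3cr1, the fractalkine receptor of monocytes, had 3.55 and 3.26 RPKM in WT and 3.56 and 1.27 RPKM in JMJD1B-/- HSPCs, which is level with WT replicate 1 in replicate 1 and below both WT libraries in replicate 2. Ccr3, the eotaxin receptor of eosinophils and basophils, had 1.7 and 2.47 RPKM in WT and 5.5 and 0.741 RPKM in JMJD1B-/- HSPCs. For Ccr3, replicate 1 was above and replicate 2 below both WT libraries. Cxcr3, a receptor of activated T and NK cells, had 0.32 and 0.498 RPKM in WT and 1.32 and 0.443 RPKM in JMJD1B-/- HSPCs. Ccr4, which was not tested, had 0.164 and 0.175 and 1.41 and 0.171 RPKM, equal to 4, 6, 12 and 5 reads as the smallest whole numbers that its values allow. Ccrl2, an atypical receptor that presents chemerin, had 2.2 and 2.31 RPKM in WT and 1.78 and 0.833 RPKM in JMJD1B-/- HSPCs, with both JMJD1B-/- libraries below WT.

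Neighbouring members of a gene cluster did not all share a direction. By their order in the RefSeq annotation of GRCm38.p6, 31 of the 69 genes lie in 10 clusters of genes that are at most 300000 bases apart, and the largest clusters hold 5 or 6 members. On chromosome 9, Cxcr6, which was higher, lies between Ccr9 and Ccr1, which were lower, and Ccr3 and Ccr2 on the other side of Ccr1 overlapped between the genotypes. On chromosome 11, Ccl9, Ccl3 and Ccl4 were lower, while Ccl6, which lies between Ccl9 and Ccl3, and Ccl5 at the edge of the cluster were not called. On chromosome 1, none of Il1r1, Il1rl2, Il1rl1, Il18r1 and Il18rap was called, and their log2 fold changes ran from −1.65 to 0.89. In pairs of the same kind on other chromosomes, Il23r was higher (log2 fold change 3.31) beside Il12rb2 (0.49), and Il6st was lower (−1.28) beside Il31ra (−0.31).

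**Figure D2:**
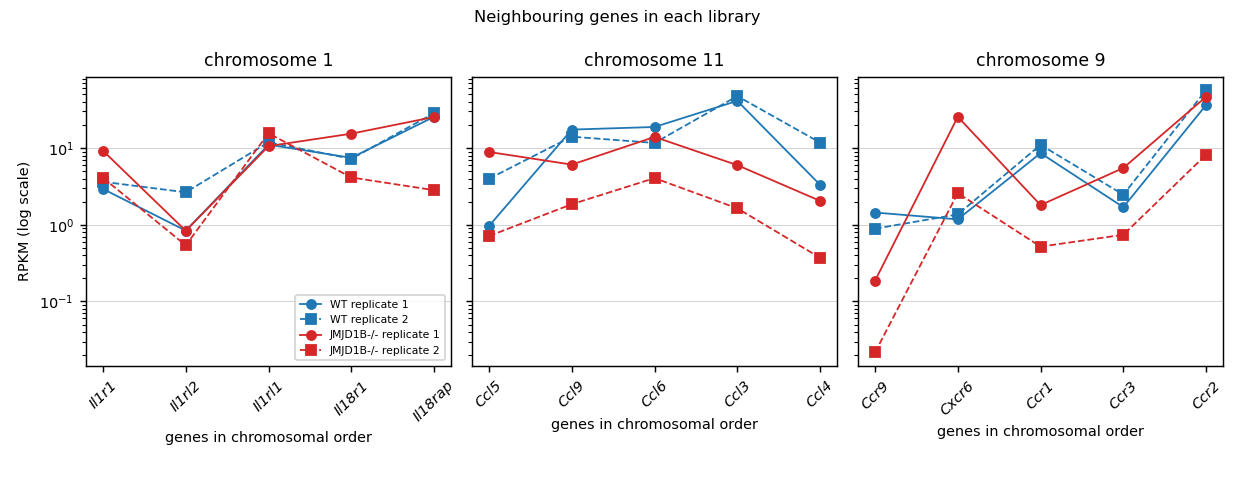
Level in each library (RPKM, log scale) of genes in the 3 largest clusters of members, in chromosomal order, with blue for WT, red for JMJD1B-/-, circles and solid lines for replicate 1 and squares and dashed lines for replicate 2. The red lines lie below the blue ones at Ccl3, Ccl4, Ccl9, Ccr9 and Ccr1 and above them at Cxcr6, and JMJD1B-/- replicate 1 is above replicate 2 in every gene shown of chromosomes 9 and 11.

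Among the 7 tested interleukins and CSFs, 4 were lower (57.1%) at an unadjusted p under 0.05 and none was higher. Over all genes tested these shares were 6.33% and 3.81%. All 7 had a negative log2 fold change, with a median of −1.99. The lower ones were Il6, Csf1, Il15 and Il12a. Il6, a ligand that signals through gp130 and drives myeloid and B cell growth, had 5.79 and 9.68 RPKM in WT and 0.729 and 0.784 RPKM in JMJD1B-/- HSPCs. The JMJD1B-/- replicates were close to each other and both far below WT. The mean went from 7.73 ± 2.75 to 0.757 ± 0.0387 RPKM (SD, n = 2 each), which is 9.78% of the WT level, with a log2 fold change of −3.15 (SE 0.43, adjusted p = 0.0768). It kept an unadjusted p under 0.05 under all 14 alternatives, and its log2 fold change lay between −3.51 and −2.78 when libraries were left out singly and was −2.28 with a pseudocount of 1.

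Csf1, the growth factor of monocytes and macrophages, had 7.96 and 7.23 RPKM in WT and 1.66 and 0.777 RPKM in JMJD1B-/- HSPCs, with a log2 fold change of −2.63 (SE 0.44, adjusted p = 0.148). The WT libraries were nearly equal, and both JMJD1B-/- libraries were far below them. Il15, which keeps NK cells and memory T cells alive, had 6.23 and 4.84 RPKM in WT and 1.56 and 0.685 RPKM in JMJD1B-/- HSPCs, with a log2 fold change of −2.29 (SE 0.49, adjusted p = 0.211). Il12a, which encodes the p35 chain of IL-12 and IL-35, was the most abundant ligand of this class, with 15 and 13.2 RPKM in WT and 8.94 and 5.08 RPKM in JMJD1B-/- HSPCs. The JMJD1B-/- libraries lay below WT for both genes, and the log2 fold change of Il12a was −1.05 (SE 0.31, adjusted p = 0.357). It became −0.65 without JMJD1B-/- replicate 2 and −1.45 without JMJD1B-/- replicate 1.

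Il1a, an inflammatory ligand of Il1r1, had 1.04 and 1.62 RPKM in WT and 0.413 and 0.142 RPKM in JMJD1B-/- HSPCs, and its log2 fold change of −1.99 (SE 0.86, adjusted p = 0.492) was not called although the genotypes did not overlap. Its JMJD1B-/- values are under the 3-read floor of a 1 kb transcript in each library. Il18, made as an inactive precursor in myeloid cells, had 1.77 and 1.35 RPKM in WT and 4.14 and 0.283 RPKM in JMJD1B-/- HSPCs. Its JMJD1B-/- libraries lay on opposite sides of WT. Il16, a ligand of CD4 that is cut from a larger protein, had 7.59 and 5.66 RPKM in WT and 7.12 and 3.07 RPKM in JMJD1B-/- HSPCs, where replicate 2 alone was below WT. Il22, a product of IL-17 producing T cells and innate lymphoid cells, was listed at 0 in WT HSPCs throughout, with 1.5 and 0.0436 RPKM in JMJD1B-/- HSPCs, equal to 10 reads and 1 read as the smallest whole numbers that fit. Csf2, which encodes GM-CSF, was listed at 0 in WT replicate 1 and in JMJD1B-/- replicate 2, and had 0.275 RPKM in WT replicate 2 and 1.58 RPKM in JMJD1B-/- replicate 1, equal to 7 and 10 reads in the same sense. Il22 and Csf2 reached 1 RPKM in JMJD1B-/- replicate 1 alone. Il18bp, a soluble protein that neutralises IL-18, had 2.91 and 3.17 RPKM in WT and 1.13 and 3.94 RPKM in JMJD1B-/- HSPCs, with its JMJD1B-/- libraries on both sides of WT.

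The promoters of Ccl3, Ccl9, Il6 and Csf1 are shown because these had the most negative log2 fold changes among the ligands with a promoter in the reference table, and that of Ccr6 because its log2 fold change was the most positive at the pseudocount of 0.1, although with a pseudocount of 1 Il23r (2.19) and Cxcr6 (2.10) were above it. The RefSeq table for GRCm38.p6 holds a promoter for 57 of the 69 genes, of which 16 were lower and 3 higher at an unadjusted p under 0.05. Each sequence is the 250 bases before the annotated start, 5′ to 3′ on the strand of the gene. It was searched on both strands for the NF-kB motif, for the AP-1 motif TGANTCA, for the STAT motif TTCNNNGAA and for the TATA box TATAAA, and matches are in capitals. NF-kB, AP-1 and STAT are transcription factors that inflammatory and cytokine signals activate. Ccl3 lies on the minus strand at chr11:83649379-83649628, Ccl9 on the minus strand at chr11:83578637-83578886, Il6 on the plus strand at chr5:30012864-30013113, Csf1 on the minus strand at chr3:107760470-107760719 and Ccr6 on the plus strand at chr17:8235793-8236042.
Ccl3: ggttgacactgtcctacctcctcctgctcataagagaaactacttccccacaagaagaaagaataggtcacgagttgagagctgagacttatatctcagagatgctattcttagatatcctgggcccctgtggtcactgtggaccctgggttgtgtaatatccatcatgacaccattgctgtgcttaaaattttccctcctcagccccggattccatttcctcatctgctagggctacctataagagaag
Ccl9: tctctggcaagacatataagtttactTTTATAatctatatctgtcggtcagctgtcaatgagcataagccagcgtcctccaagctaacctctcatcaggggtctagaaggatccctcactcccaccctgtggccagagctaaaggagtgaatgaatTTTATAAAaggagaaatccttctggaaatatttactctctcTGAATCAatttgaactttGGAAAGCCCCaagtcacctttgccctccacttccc
Il6: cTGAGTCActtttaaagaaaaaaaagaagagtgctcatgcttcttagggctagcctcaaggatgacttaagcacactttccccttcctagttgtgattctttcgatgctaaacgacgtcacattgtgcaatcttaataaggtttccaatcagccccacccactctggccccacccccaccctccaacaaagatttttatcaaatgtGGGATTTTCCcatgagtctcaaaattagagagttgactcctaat
Csf1: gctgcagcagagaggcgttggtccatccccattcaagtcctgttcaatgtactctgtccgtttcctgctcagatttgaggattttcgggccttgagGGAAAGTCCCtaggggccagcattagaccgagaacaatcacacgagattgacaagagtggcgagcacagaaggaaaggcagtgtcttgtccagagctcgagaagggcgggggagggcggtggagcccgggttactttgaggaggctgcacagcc
Ccr6: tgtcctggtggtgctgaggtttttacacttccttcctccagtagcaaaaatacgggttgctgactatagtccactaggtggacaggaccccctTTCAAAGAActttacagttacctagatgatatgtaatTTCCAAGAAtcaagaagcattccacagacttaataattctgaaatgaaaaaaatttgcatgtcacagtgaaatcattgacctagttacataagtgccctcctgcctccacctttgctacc

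The NF-kB motif is at 35 to 26 bases before the start in Ccl9, at 44 to 35 bases in Il6 and at 154 to 145 bases in Csf1. The AP-1 motif is at 53 to 47 bases in Ccl9 and at 249 to 243 bases in Il6. Ccl9 also holds the TATA letters 3 times, at 224 to 219, 94 to 89 and 92 to 87 bases, where the last ones overlap on opposite strands, and Ccr6 holds the STAT motif at 157 to 149 and at 120 to 112 bases. The Ccl3 window holds none of these letters, which says nothing about the factors. Among the 16 lower genes with a promoter, 3 held the NF-kB motif (18.8%), beside 10.5% of the 57 members and 3.75% of the 27025 promoters in the table. The AP-1 motif was in 3 of the 16 (18.8%), beside 14% of the members and 6.87% of all promoters. For STAT it was 1 of the 16 (6.25%), beside 10.5% and 7.18%, and for TATA 2 of the 16 (12.5%), beside 10.5% and 13%. These are counts of letters and not of bound sites.

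Among the 35 cytokine receptor chains, 9 were lower (25.7%) and 2 were higher (5.71%) at an unadjusted p under 0.05. Over all genes tested these shares were 6.33% and 3.81%, and the median log2 fold change of the chains was −0.31. The lower ones were chains of the IL-3 and GM-CSF family (Csf2rb, Csf2rb2 and Il3ra), of the IL-6 family (Il6ra, Il6st, Il11ra1 and Csf3r), Il10ra and Il17rb. The higher ones were Il23r and Il27ra. Il17rb, which pairs with Il17ra to bind IL-25, was the lowest of them relative to WT. It had 9.75 and 6.23 RPKM in WT and 1.4 and 0.992 RPKM in JMJD1B-/- HSPCs; both JMJD1B-/- libraries were far below WT, at 15% of the WT mean. The log2 fold change was −2.62 (SE 0.40, adjusted p = 0.117), and it kept an unadjusted p under 0.05 under all 14 alternatives. Its partner Il17ra, the most abundant chain of the class, had 43.6 and 38 RPKM in WT and 30.5 and 40.7 RPKM in JMJD1B-/- HSPCs, where the genotypes overlapped (log2 fold change −0.21, SE 0.21).

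The receptors of IL-3, IL-5 and GM-CSF consist of an alpha chain for each ligand and the common beta chain Csf2rb, and the mouse has a second beta chain, Csf2rb2, that serves IL-3 alone. Csf2rb had 25 and 17.1 RPKM in WT and 12 and 3.77 RPKM in JMJD1B-/- HSPCs, with a log2 fold change of −1.60 (SE 0.50, adjusted p = 0.386). Csf2rb2 had 11.3 and 9.87 RPKM in WT and 6.39 and 2.18 RPKM in JMJD1B-/- HSPCs, with a log2 fold change of −1.47 (SE 0.47, adjusted p = 0.395). Both genes were lowest in JMJD1B-/- replicate 2, and since they are close paralogs that could share reads, they are not independent. Il3ra, the alpha chain for IL-3, had 13.8 and 8.74 RPKM in WT and 4.31 and 5.6 RPKM in JMJD1B-/- HSPCs, with a log2 fold change of −1.15 (SE 0.31, adjusted p = 0.32). Here JMJD1B-/- replicate 1 was the lower one. Csf2ra, the alpha chain for GM-CSF, had 16.6 and 7 RPKM in WT and 6.81 and 9.59 RPKM in JMJD1B-/- HSPCs, so that only WT replicate 1 stood above the rest. Il5ra, the alpha chain for IL-5 of eosinophils, had 3.91 and 1.15 RPKM in WT and 2.43 and 0.865 RPKM in JMJD1B-/- HSPCs. It was high in replicate 1 of both genotypes, and so was the summed level of 5 listed eosinophil markers, at 5920 and 1130 RPKM in WT and 5300 and 1200 RPKM in JMJD1B-/- HSPCs.

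The receptors of IL-6 and IL-11 share gp130, encoded by Il6st, beside a chain for each ligand. Il6st had 15 and 14.9 RPKM in WT and 9.86 and 3.73 RPKM in JMJD1B-/- HSPCs, with a log2 fold change of −1.28 (SE 0.42, adjusted p = 0.406). The WT libraries were almost equal and JMJD1B-/- replicate 2 was the lower of the others. Il6ra, the chain for IL-6, had 7.45 and 7.42 RPKM in WT and 3.46 and 2.97 RPKM in JMJD1B-/- HSPCs, with a log2 fold change of −1.19 (SE 0.29, adjusted p = 0.259). Both replicates of each genotype were close, and the level in JMJD1B-/- HSPCs was 43.2% of the WT mean. Il11ra1, the chain for IL-11, had 11 and 9.36 RPKM in WT and 4.81 and 6.61 RPKM in JMJD1B-/- HSPCs, with a log2 fold change of −0.84 (SE 0.28, adjusted p = 0.403). Its near-identical copy Il11ra2, with which it could share reads, had 3.35 and 3.1 and 0.973 and 2.63 RPKM, below WT in both JMJD1B-/- libraries and not called. Csf3r, the receptor of G-CSF on neutrophils and their precursors, which works without gp130, had 5.64 and 4.62 RPKM in WT and 2.6 and 2.17 RPKM in JMJD1B-/- HSPCs, with a log2 fold change of −1.07 (SE 0.34, adjusted p = 0.393). So Il6 and both chains of its receptor were lower at an unadjusted p under 0.05. Il31ra, a chain for IL-31 that works without gp130, had 4.84 and 5.23 and 2.23 and 7.27 RPKM, with JMJD1B-/- replicates on both sides of WT.

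Il27ra, which pairs with gp130 to bind IL-27 and is carried by stem cells and T cells, was the higher gene with close replicates. It had 5.54 and 5.17 RPKM in WT and 9 and 10.9 RPKM in JMJD1B-/- HSPCs, at 186% of the WT mean, and the 2 JMJD1B-/- libraries were both above WT. The log2 fold change was 0.88 (SE 0.26, adjusted p = 0.348) and lay between 0.74 and 1.02 when libraries were left out singly, although without either WT library the unadjusted p was above 0.05. Il23r, which pairs with Il12rb1 to bind IL-23 and marks IL-17 producing T cells, had 0.413 and 0.514 RPKM in WT and 11.2 and 2.65 RPKM in JMJD1B-/- HSPCs, with a log2 fold change of 3.31 (SE 0.71, adjusted p = 0.211). Like Ccr6 and Cxcr6, it was highest in JMJD1B-/- replicate 1. It is itself 1 of the 7 listed genes of gamma-delta and IL-17 producing T cells given above. Its partner Il12rb1 had 1.44 and 1.01 RPKM in WT and 3 and 1.02 RPKM in JMJD1B-/- HSPCs and was not called, and Il12rb2, the IL-12 chain encoded beside Il23r, had 1.68 and 0.903 and 2.54 and 1.24 RPKM. In both partners only JMJD1B-/- replicate 1 stood above WT.

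Il10ra, the ligand-specific chain for IL-10, had 9.24 and 9.58 RPKM in WT and 5.47 and 1.97 RPKM in JMJD1B-/- HSPCs, with a log2 fold change of −1.49 (SE 0.46, adjusted p = 0.381). Both JMJD1B-/- libraries were below WT. Its partner Il10rb, a chain that receptors of IL-22 and interferon lambda share, had 15.4 and 14.1 RPKM in WT and 11.6 and 12.9 RPKM in JMJD1B-/- HSPCs, also below WT in both libraries, and its log2 fold change of −0.27 (SE 0.21) was not called. Il4ra, the chain for IL-4 and IL-13, had 5.5 and 4.91 RPKM in WT and 3.67 and 2.29 RPKM in JMJD1B-/- HSPCs, and Il13ra1, its partner outside lymphocytes, had 0.712 and 1.64 and 0.222 and 0.116 RPKM. The JMJD1B-/- libraries were below WT in both genes, without a call, and the log2 fold change of Il13ra1 was −2.17 (SE 0.98, adjusted p = 0.509), with JMJD1B-/- values that also lie under the 3-read floor for 1 kb.

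The common gamma chain and the chains that pair with it for IL-2, IL-7, IL-15 and IL-21 overlapped between the genotypes. Il2rg, the chain that receptors of IL-2, IL-4, IL-7, IL-9, IL-15 and IL-21 share, had 8.75 and 9.93 RPKM in WT and 13.2 and 6.48 RPKM in JMJD1B-/- HSPCs. Il7r, the IL-7 chain of lymphoid progenitors, T cells and innate lymphoid cells, had 4.94 and 10.2 RPKM in WT and 39.4 and 6.7 RPKM in JMJD1B-/- HSPCs. Il2rb, the beta chain for IL-2 and IL-15, had 1.57 and 2.98 RPKM in WT and 6.49 and 0.927 RPKM in JMJD1B-/- HSPCs. All 3 were highest in JMJD1B-/- replicate 1, while replicate 2 was below both WT libraries for Il2rg and Il2rb and between them for Il7r. Il2ra, the high-affinity chain for IL-2, had 0.262 and 0.796 and 3.25 and 0.429 RPKM, and Il15ra, which presents IL-15, had 4.26 and 3.2 and 5.46 and 3.17 RPKM, with the same high value in replicate 1. Il21r, the IL-21 chain, had 1.77 and 1.6 and 2 and 0.981 RPKM and a log2 fold change of −0.25. The summed level of 9 listed T cell markers, 2 of them higher at an unadjusted p under 0.05, was likewise highest in JMJD1B-/- replicate 1, at 52.4 RPKM, against 6.95 and 10.7 RPKM in WT and 11 RPKM in JMJD1B-/- replicate 2, and the part of T cells in these values was not tested.

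In the family of IL-1 and IL-18 receptors, no chain was called. Il18rap, the accessory chain for IL-18, was the second most abundant cytokine receptor chain in WT and had 25.6 and 28.6 RPKM in WT and 25.4 and 2.82 RPKM in JMJD1B-/- HSPCs. JMJD1B-/- replicate 1 was level with WT replicate 1, and replicate 2 was far below it. Il18r1, the ligand-binding chain for IL-18, had 7.47 and 7.24 RPKM in WT and 15.4 and 4.14 RPKM in JMJD1B-/- HSPCs, with replicate 1 above and replicate 2 below WT. The 10 markers of NK and innate lymphoid cells, which carry this receptor, had a summed level of 35.4 and 47.7 RPKM in WT and 79.6 and 20.3 RPKM in JMJD1B-/- HSPCs, highest in replicate 1 and lowest in replicate 2 as in Il18r1, and their part in these values was not tested. Il1rl1, the IL-33 chain of mast cells, basophils and type 2 innate lymphoid cells, had 11.1 and 11.9 RPKM in WT and 10.6 and 15.6 RPKM in JMJD1B-/- HSPCs. Il1rap, the accessory chain of the IL-1 and IL-33 receptors, had 2.28 and 2.34 RPKM in WT and 1.75 and 2.3 RPKM in JMJD1B-/- HSPCs, and its log2 fold change of −0.19 had a standard error of 0.42. The genotypes overlapped in both genes. Il1r1, the signalling receptor of IL-1, had 2.93 and 3.64 RPKM in WT and 9.23 and 4.09 RPKM in JMJD1B-/- HSPCs, above WT in both libraries, with a log2 fold change of 0.89 (SE 0.43, adjusted p = 0.535). Il1rl2, the receptor of IL-36, had 0.838 and 2.65 RPKM in WT and 0.835 and 0.539 RPKM in JMJD1B-/- HSPCs, below WT in both libraries by less than the spread between the WT libraries. Il17re, a chain for IL-17C, had 0.586 and 0.537 and 1.63 and 1.2 RPKM and was above WT in both JMJD1B-/- libraries (log2 fold change 1.18, adjusted p = 0.588), and Il20rb, a chain for IL-20, IL-19 and IL-24, had 1.4 and 1.53 and 0.659 and 1.07 RPKM.

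**Figure D3:**
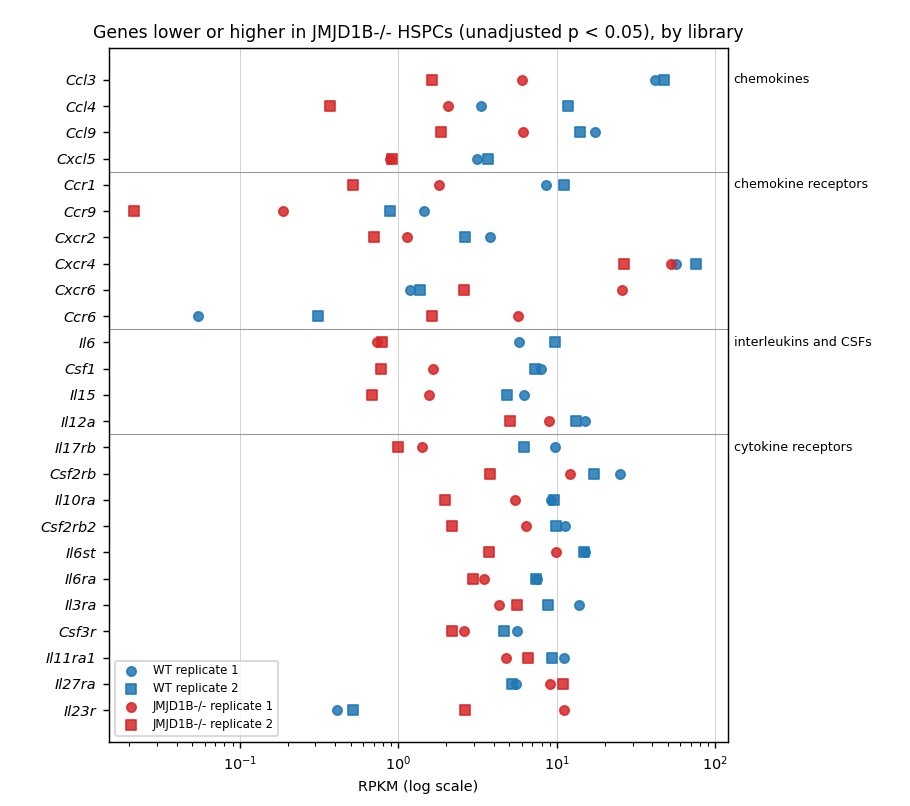
Level in each library (RPKM, log scale) of the 25 genes called lower or higher (unadjusted p under 0.05 in limma), with circles for replicate 1, squares for replicate 2, blue for WT and red for JMJD1B-/-. In the 21 lower genes both red points lie left of both blue points, and in 17 of them JMJD1B-/- replicate 2 is the lower red point, while the 4 higher genes are Cxcr6, Ccr6, Il27ra and Il23r.

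These genes were mostly higher in JMJD1B-/- replicate 1 than in replicate 2, unlike the table as a whole. JMJD1B-/- replicate 1 was above replicate 2 in 53 of the 69 genes, and in 4081 of all 11863 genes tested. The median ratio of replicate 1 to replicate 2 was 2.20 over the 69 genes and 0.882 over all genes. By class it was 3.28 in the chemokines, 3.50 in the chemokine receptors, 2.30 in the interleukins and CSFs and 1.72 in the cytokine receptors, and all 13 chemokine receptors were higher in replicate 1. In 10 of the 66 tested genes (15.2%) replicate 1 lay above and replicate 2 below both WT libraries, a pattern of 5.56% of all genes. Among them were Ccl5, Ccr3, Cx3cr1, Il15ra, Il18, Il18r1, Il21r, Il2rb and Il2rg. The reverse held for 3 genes, Il18bp, Il1rl1 and Il31ra, and for 17% of all genes. JMJD1B-/- replicate 1 is the library of the lowest depth, and the part of depth in these ratios was not tested.

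**Figure D4:**
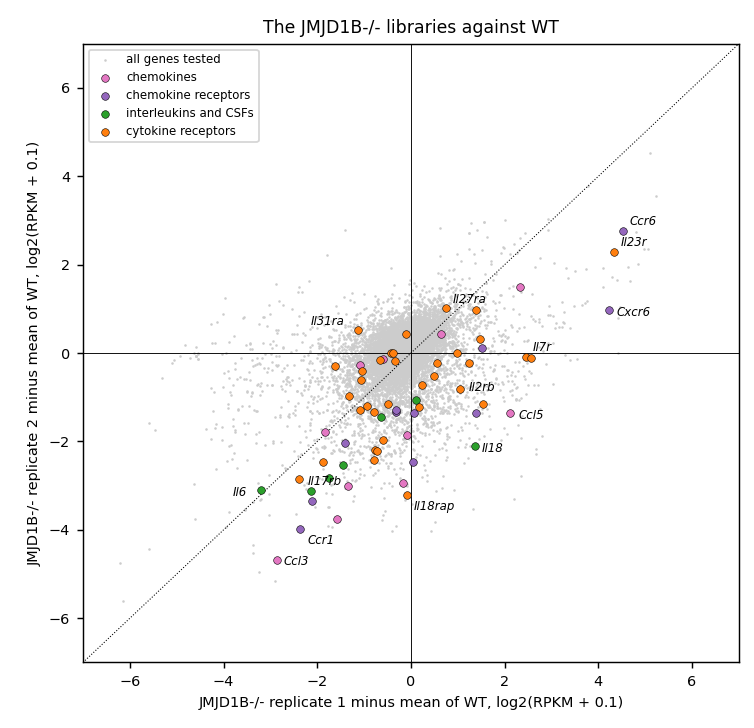
Difference of each JMJD1B-/- library from the mean of the WT libraries, on log2(RPKM + 0.1), with replicate 1 on the horizontal and replicate 2 on the vertical axis. Coloured points are the chemokine, interleukin and receptor genes by class, grey points are all genes tested, and a gene under the dotted line is higher in replicate 1 than in replicate 2. Ccl3, Ccr1 and Il6 lie to the lower left, low in both libraries, and Ccr6, Il23r and Cxcr6 lie to the right, highest in replicate 1.

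Markers of basophils and mast cells were lower as well. Of the 8 listed markers of basophils and mast cells, 8 were lower at an unadjusted p under 0.05. Their summed level was 579 and 629 RPKM in WT and 141 and 93.3 RPKM in JMJD1B-/- HSPCs. These cells make Il6, Ccl3, Ccl4 and Csf1 and carry Csf2rb and Il3ra. Basophils also carry Il1rl1 and Ccr3, which overlapped between the genotypes (log2 fold changes 0.16 and 0.02). Of the 10 granulocyte markers, the 5 lower ones were Mpo, Elane, Prtn3, Ctsg and Ms4a3, genes of early granulocyte precursors, and the 2 higher ones were S100a8 and S100a9, which neutrophils express at later stages. S100a9 went from 2.79 and 1.41 RPKM in WT to 8.01 and 10.8 RPKM in JMJD1B-/- HSPCs. The sums of the 10 were 292 and 202 RPKM in WT and 88.5 and 55.4 RPKM in JMJD1B-/- HSPCs, to which Mpo gave 131, 79, 21.4 and 12.1 RPKM. The late gene Ltf was above WT in both JMJD1B-/- libraries but was too low to be tested, Ngp overlapped between the genotypes, and Camp was listed at 0 in WT replicate 2 and JMJD1B-/- replicate 1. Of 5 listed monocyte and macrophage markers, cells that carry Ccr2 and Cx3cr1, 2 were lower, with sums of 52.7 and 25.1 RPKM in WT and 35.1 and 13.6 RPKM in JMJD1B-/- HSPCs, which overlapped, while Cd14, C1qa, C1qc and Mrc1 are not listed. The part of these cells in the results was not tested. The 10 HSPC markers were all listed, which takes only 1 RPKM in 1 library and so does not check the label of the cells. Their sums were 296 and 254 RPKM in WT and 164 and 211 RPKM in JMJD1B-/- HSPCs, and 5 of them were lower. Sums of the other lists were 614 and 556 against 235 and 337 RPKM for 5 megakaryocyte markers (of which Pf4, Ppbp and Itga2b were lower, while Gp1bb and Gp9 had log2 fold changes of −0.04 and −0.03), 355 and 552 against 1120 and 1640 RPKM for 5 erythroid markers, 60 and 92 against 57.2 and 34.6 RPKM for 7 dendritic cell markers, 39.7 and 63.3 against 23.1 and 10.9 RPKM for 5 listed markers of stroma and endothelium, and 3.73 and 3.42 against 3.04 and 0.766 RPKM for 2 listed B cell markers. Of the B cell list, Cd79a, Ms4a1, Pax5, Ebf1 and Vpreb1 are not in the table. Gata2 is in the HSPC and the basophil list, and Flt3 in the HSPC and the dendritic cell list. Pf4 and Ppbp of the megakaryocyte list and Flt3 and Kit of the HSPC list are also among the pathway genes below.

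**Figure D5:**
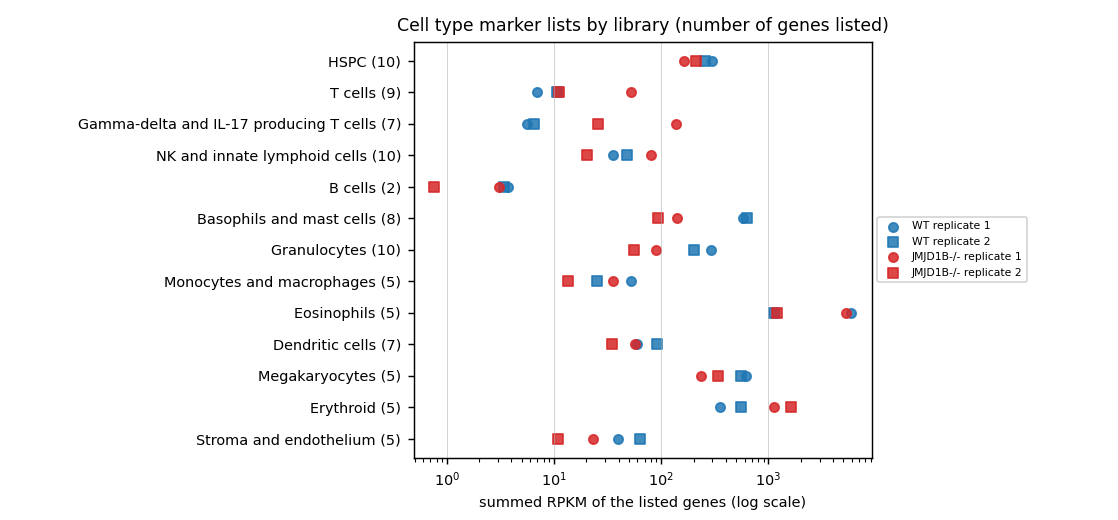
Summed level of the listed markers of 13 cell types in each library (RPKM, log scale), with the number of listed genes in brackets, circles for replicate 1, squares for replicate 2, blue for WT and red for JMJD1B-/-. The basophil and mast cell sums are 579 and 629 RPKM in WT against 141 and 93.3 RPKM in JMJD1B-/- HSPCs, and the gamma-delta and IL-17 producing T cell sum is highest in JMJD1B-/- replicate 1, at 136 RPKM.

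Other genes of these pathways, taken from a list that holds no member, were compared in the same fit. Of 60 genes, 56 were listed and tested, and 11 of them (19.6%) were lower and none higher at an unadjusted p under 0.05, beside 6.33% and 3.81% of all genes, with a median log2 fold change of −0.29. None had an adjusted p under 0.05. The kinases Jak1 and Jak2 and the factors Stat5a and Stat5b, which carry the signal of Csf2rb, were not called, with log2 fold changes of 0.15, −0.38, 0.19 and 0.09. Stat3, which gp130 activates, had 23.3 and 21.7 RPKM in WT and 15.2 and 15.4 RPKM in JMJD1B-/- HSPCs, with a log2 fold change of −0.56 (SE 0.19, adjusted p = 0.425). Osm, which encodes the gp130 ligand oncostatin M, had 5.91 and 10.1 RPKM in WT and 1.54 and 2.19 RPKM in JMJD1B-/- HSPCs, with a log2 fold change of −2.01 (SE 0.39, adjusted p = 0.186). Both JMJD1B-/- libraries were below WT in both genes. The platelet chemokines Pf4 and Ppbp, whose names the rule does not match, had 348 and 308 and 90.8 and 102 RPKM in WT and 92.8 and 167 and 52.6 and 41.7 RPKM in JMJD1B-/- HSPCs, with log2 fold changes of −1.39 and −1.04. Rgs1, which shortens chemokine receptor signals, was lower (log2 fold change −0.91), as were the receptor kinase Adrbk1 (−0.44), the arrestin Arrb2 (−0.51), the lipid kinase gene Pik3cg (−0.67), the growth factor receptor Flt3 (−1.84) and the interleukin-1 receptor associated kinases Irak3 (−0.82) and Irak4 (−0.68).

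The number of calls depended on the libraries in the fit, over all genes as well as among the members. Counts with each library left out are given at the end, beside those of all genes. The median log2 fold change of the 66 was −0.59 without WT replicate 1 and −0.68 without WT replicate 2. Over all genes it was −0.03 in both fits. The adjusted p was under 0.05 in 21 of the 66 (630 of all genes) without JMJD1B-/- replicate 1, in 18 (669 of all genes) without JMJD1B-/- replicate 2, and in none of the 66 without either WT library. None of the 25 called genes changed sign with any library left out, which was fixed beforehand because their genotypes did not overlap. Il6, Csf1 and Il17rb kept an unadjusted p under 0.05 with each library left out and under all 10 alternatives with 4 libraries. Ccl3, Ccl9, Il15, Ccr1, Ccr6 and Il23r lost it under the gene-by-gene test alone. With JMJD1B-/- replicate 2 or else replicate 1 left out, the log2 fold change was −1.35 and −3.01 for Ccl9, −2.37 and −3.99 for Ccr1, 4.33 and 2.29 for Il23r and 4.52 and 2.77 for Ccr6. Ccr6 was also at 2.94 without WT replicate 1 and 4.35 without WT replicate 2. The other 16 lost an unadjusted p under 0.05 with at least 1 library left out, and among them the log2 fold changes without JMJD1B-/- replicate 2 and without JMJD1B-/- replicate 1 were −0.78 and −2.43 for Csf2rb, −0.77 and −2.20 for Il10ra, −0.71 and −2.22 for Csf2rb2, −0.59 and −1.97 for Il6st, −2.11 and −3.34 for Ccr9, 4.23 and 0.97 for Cxcr6 and −1.57 and −3.76 for Ccl4. Ccl4 was also at −3.56 without WT replicate 1 and −1.76 without WT replicate 2. A pseudocount of 1 brought the log2 fold change nearer to 0 in all 25, to −2.38 for Ccr1, −2.01 for Il17rb, −1.98 for Csf1, −1.86 for Ccl4, −1.65 for Il15, −1.21 for Cxcl5, −1.13 for Cxcr2 and 2.19 for Il23r, beside the values given above for Il6, Ccr6 and Ccr9.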

How the data were processed

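The authors deposited gene-level RPKM values of the 4 libraries in 1 table after adding 1, and RPKM was recovered here by subtraction. Per the submitters' processing notes, Novoalign, TopHat2 and the mm9 build were used, with no role given, and the counting program and annotation are not given in the sources used here. The table has 12024 entries, and 42 repeated names (Il11ra2 and Ccl27b among the members) were averaged. The 69 members and all lists were chosen with earlier results of these data known.

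Genes with a mean of at least 0.5 RPKM were compared on log2(RPKM + 0.1) by a two-sided moderated test (limma 3.58.1, R 4.3.3, eBayes using a trend), with Benjamini-Hochberg adjustment over all genes tested, and fold changes on this scale understate changes of low genes. With 2 libraries per genotype, the smallest two-sided p of an exact permutation test is 0.333. Depth was estimated from 13 genes whose values fit whole reads, with no count test. Promoters and gene order came from RefSeq GRCm38.p6. Files were read with Python 3.11.15 and pandas 2.3.3 and drawn with matplotlib 3.10.9. The limma script was tested on simulated data.

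Values in all 4 libraries are given for called members, members without overlap and a log2 fold change of at least 1 in size, the 3 most abundant members of each class, members listed at 0 and partner chains. ChIP-seq samples were left aside, and the values of 1 member, which stays in all counts, are not reported here. Alternatives tried were a pseudocount of 1 or 0.01, no filter, a filter at 1 RPKM, quantile normalization, scaling by median ratios over 11751 genes, eBayes with no trend, an equal-variance test of single genes (called gene-by-gene), a replicate block, the first entry of each repeated name, and each library left out in turn.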

Additional observations from a re-analysis of the deposited data

How the results depend on the processing

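None of the 25 called members changed sign under those of the 14 alternatives that gave a value. Ccr9 had no value with the filter at a mean RPKM of at least 1. As the genotypes did not overlap in these 25, only a rescaling of the libraries could have changed a sign. The count of lower members was 21 (19 to 23 under the alternatives with 4 libraries) and that of higher members 4 (4 to 6), except with the gene-by-gene test, which gave 7 lower and 2 higher. With each library left out in turn, lower members numbered 9 to 35 and higher members 2 to 15, and over all genes 177 to 1819 were lower and 123 to 1258 higher. Over all genes, 177 were lower and 123 higher without WT replicate 1, 272 and 250 without WT replicate 2, 1309 and 1258 without JMJD1B-/- replicate 1, and 1819 and 727 without JMJD1B-/- replicate 2. In these fits the lone library of a genotype is assumed to vary like the other genotype. With a pseudocount of 1, 1 member had an adjusted p under 0.05, beside 18 of all 11863 genes tested. Same-numbered libraries did not deviate together over genes (correlation −0.0543, 2 pairs). With 2 pairs this cannot show that pairing was absent. Il5ra and the summed eosinophil markers were higher in replicate 1 of both genotypes. A fit with the replicate block gave 23 lower and 5 higher members, 15 of them at an adjusted p under 0.05, beside 914 lower and 571 higher genes in all, 256 of them adjusted. Of the called members, Ccr9 alone lost its unadjusted p under the block. Low values, such as Ccr6 in WT replicate 1 and Ccr9 in JMJD1B-/- HSPCs, are limited by depth.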
